A study of Mus musculus with 4 samples.

Results

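NADPH oxidase and antioxidant genes were followed in 3 cell classes of the mouse ascending aorta. The 10 genes were taken by name: Nox4, Cyba and Cybb of the oxidases, Sod1, Sod2, Sod3, Nqo1, Hmox1 and Gpx3 of the antioxidant defence, and Txnip. All 10 were among the 18108 genes common to the 3 count files. Cells were assigned by their own counts of unique molecular identifiers (UMIs). Smooth muscle cells had at least 5 Myh11 UMIs and no Pdgfra UMI. Fibroblasts had at least 1 Pdgfra UMI and at most 2 Myh11 UMIs. Macrophages had at least 10 UMIs of C1qa, C1qb and Lyz2 together and fewer than 5 of Myh11.

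The study set cells of the second heart field (SHF) beside cells of other origins in their response to angiotensin II (AngII), the pressor peptide of the renin system. All libraries came from aortas of male Mef2c-mTmG mice, in which a membrane reporter marks a lineage, and live cells were sorted on that lineage before capture with 10x Genomics 3′ v3 chemistry. The 3 libraries analysed were SHF baseline, SHF AngII (infusion for 3 days) and CNC AngII (the same infusion), where the labels do not spell out CNC. CNC baseline was not analysed here, so a CNC response to AngII cannot be given. The Cre driver in full, the age of the mice and the number pooled per library are not given in the sources used here. Each group had 1 library: no difference below has a replicate check, no test was made, and "higher" or "lower" describes these libraries.

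The cells entering the sums were 2259, 4649 and 6385 smooth muscle cells, and 3939, 2640 and 842 fibroblasts, for SHF baseline, SHF AngII and CNC AngII. Macrophages numbered 1764 in CNC AngII but 8 and 13 in the SHF libraries, so macrophage values are those of CNC AngII unless stated. Median depth ranged from 9534 to 15486 UMIs per cell over these 7 groups of smooth muscle cells, fibroblasts and CNC AngII macrophages. The classes carried their markers: all 6 smooth muscle markers, all 6 fibroblast markers and all 9 macrophage markers reached 10 counts per 1000000 (CPM) in their own class. The few SHF macrophages also held the 6 fibroblast markers at a sum of 10446 and 5035 CPM. Pairs of libraries shared 29 to 34 cell barcodes. The baseline file lists 18760 genes and the AngII files 32285, so a difference between AngII and baseline includes a difference of annotation.

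NADPH oxidases pass electrons from NADPH to oxygen and so make superoxide or hydrogen peroxide. In the vessel wall, Nox4 is a major but not the only oxidase of smooth muscle cells and fibroblasts. Cybb (Nox2) is best known as the oxidase of phagocytes, and both need the membrane subunit encoded by Cyba. Superoxide dismutases turn superoxide into hydrogen peroxide, peroxidases remove the peroxide, and Txnip binds thioredoxin and blocks its reducing activity. AngII is a known activator of vascular oxidases, which acts largely on the protein complexes; transcript levels alone were measured here.

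Levels are CPM: the UMIs of a gene summed over the cells of a class in a library, per 1000000 UMIs of those cells. Intervals are 95% exact Poisson intervals for levels and conditional binomial intervals for ratios without a pseudocount, and cover counting error only. Ratios are log2 of (CPM + 1) over (CPM + 1), for genes with a mean of at least 10 CPM in the groups compared, and a gene was called past 2-fold at a log2 ratio of at least 1 in either direction.

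Smooth muscle cells and fibroblasts held Nox4, and macrophages Cybb. Between libraries, Txnip was lower in SHF AngII than in SHF baseline in both smooth muscle cells and fibroblasts, and Hmox1 was higher in SHF AngII fibroblasts. Nox4 was lower in SHF AngII than in SHF baseline in both classes, under 2-fold at the main setting. In smooth muscle cells it was past 2-fold, at -1.21, under 1 of 13 other settings. Between CNC AngII and SHF AngII, no tested gene of the 10 was past 2-fold in either class, where 0.798% of all genes were in smooth muscle cells and 0.610% in fibroblasts.

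**Figure D1:**
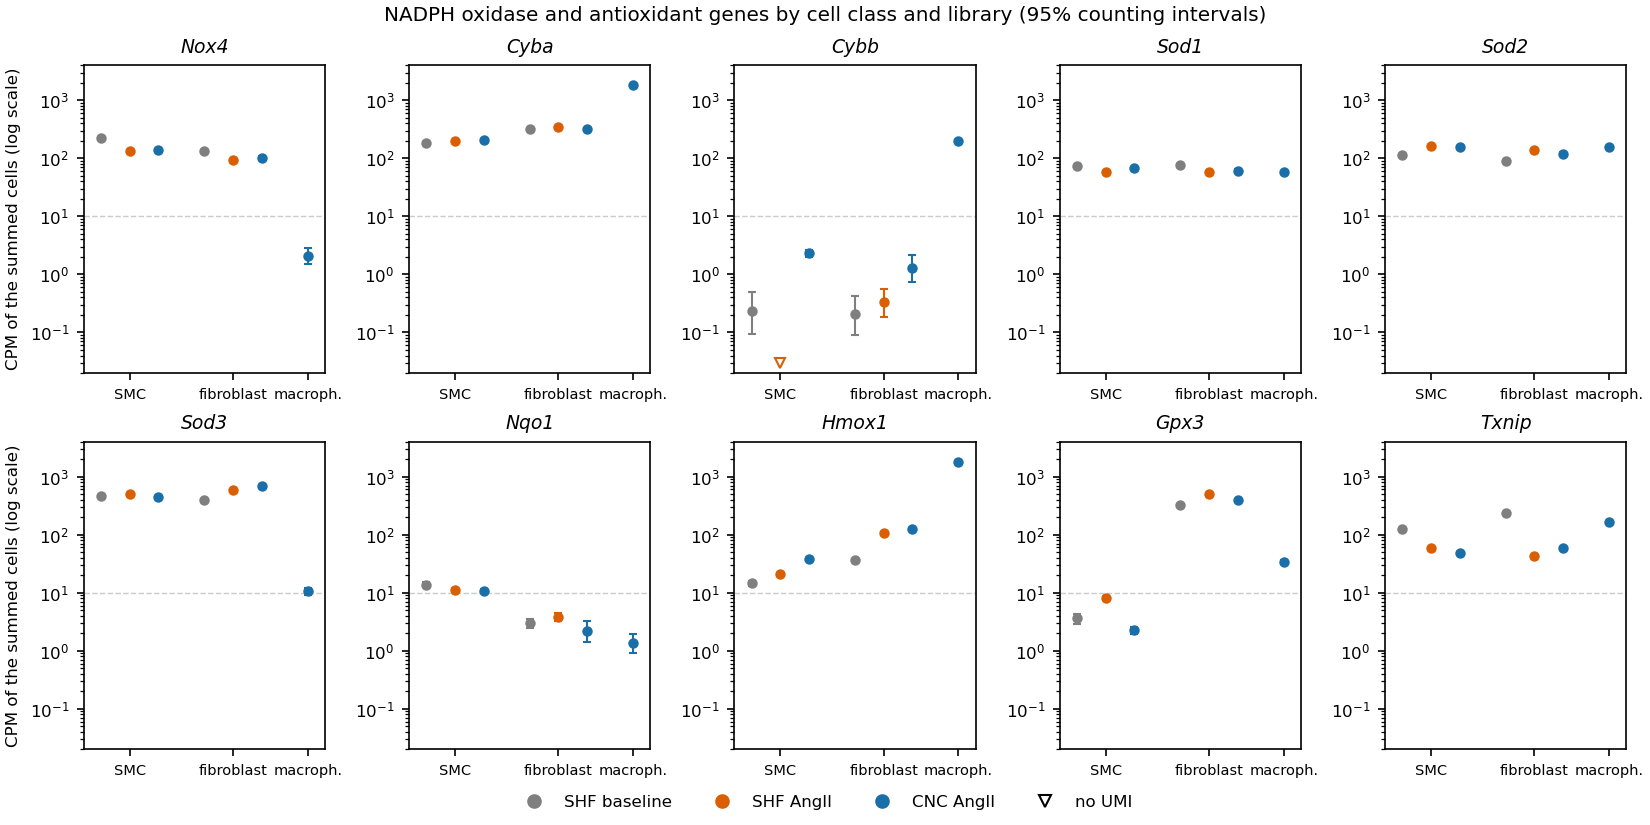
Levels of the 10 genes in CPM (log axis) in smooth muscle cells and fibroblasts of 3 libraries and macrophages of CNC AngII, 1 point per group with its 95% counting interval; the open triangle marks a group without a UMI and the dashed line 10 CPM. Gpx3 separates all 3 classes, Nox4 and Sod3 are lowest in these macrophages and mixed between the wall classes, Cybb, Cyba and Hmox1 are higher in them than in any wall cell group, and Txnip is lower in both AngII libraries than in SHF baseline in both wall cell classes.

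In smooth muscle cells, 1 of 8 tested genes was past 2-fold between SHF AngII and SHF baseline, against 6.39% of all 6998 genes tested there. That gene was Txnip, on the lower side. The median log2 ratio of the 8 genes was -0.08 and that of all tested genes -0.10. In fibroblasts, 2 of 8 genes were past 2-fold, Hmox1 higher and Txnip lower, against 15.3% of 7691 genes, with medians of 0.35 and -0.21. Cybb and Gpx3 in smooth muscle cells, and Cybb and Nqo1 in fibroblasts, fell below the minimum level and were not tested. In CPM scaled by edgeR's TMM factors, which shift the AngII ratios up by 0.18 in smooth muscle cells and 0.28 in fibroblasts, the smooth muscle count was 0 and the fibroblast count stayed at 2.

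Between CNC AngII and SHF AngII, none of 8 genes was past 2-fold in smooth muscle cells, against 0.798% of all 6763 genes, and none of 8 in fibroblasts, against 0.610% of 7214 genes. Past a fold of 1.25, there was 1 gene of 8 in smooth muscle cells (Hmox1, higher in CNC AngII), against 6.25% of all genes; its direction turned, from 0.83 to -0.18, when macrophage RNA was subtracted, and it was past 2-fold, at 1.41, with marked doublets kept. In fibroblasts there were 2 of 8 (Txnip higher, Gpx3 lower in CNC AngII), against 8.08%. Both comparisons use SHF AngII, so their ratios are not independent of those with SHF baseline.

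**Figure D2:**
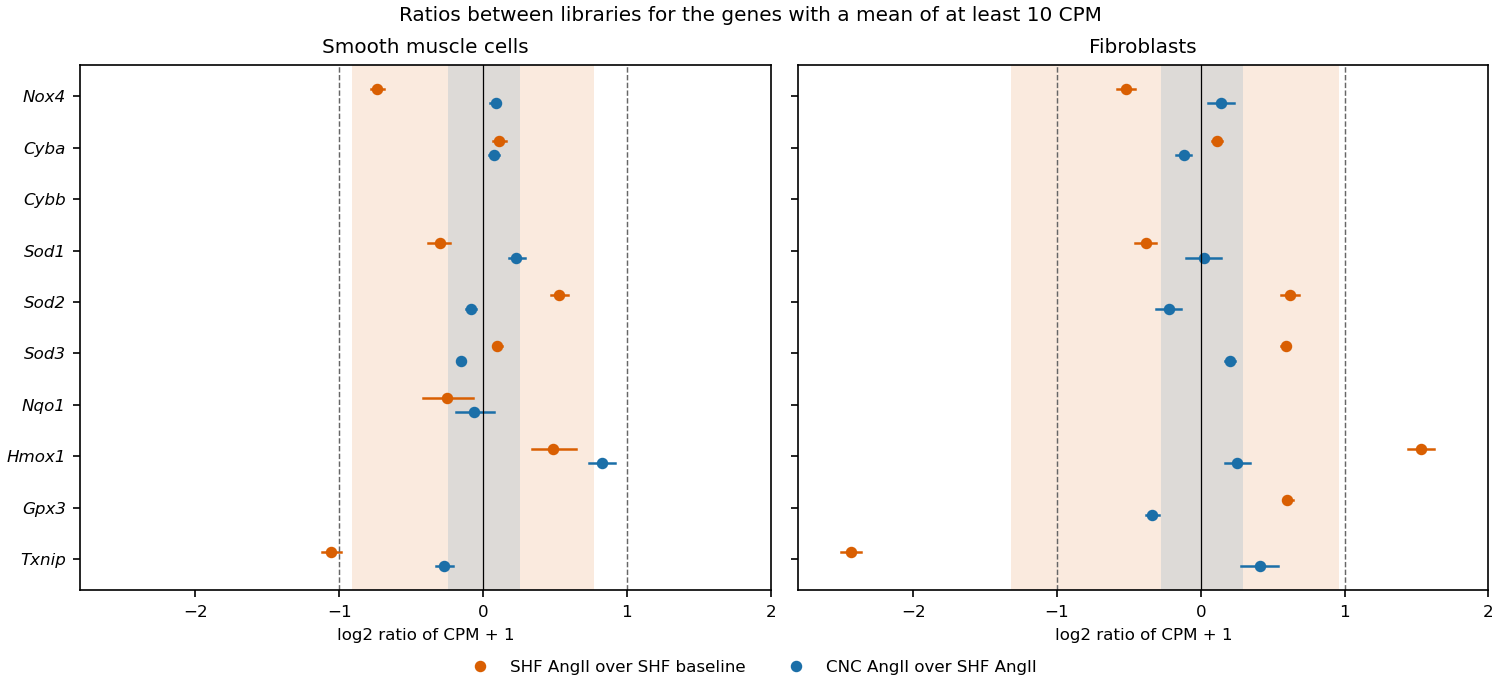
log2 ratios of CPM + 1 for the genes with a mean of at least 10 CPM, SHF AngII over SHF baseline (orange) and CNC AngII over SHF AngII (blue), with 95% counting intervals; shaded bands span the 5th to 95th percentile of all tested genes and dashed lines mark 2-fold. Txnip at -2.43 and Hmox1 at 1.53 in fibroblasts, and Txnip at -1.06 in smooth muscle cells, lie outside the orange bands and past 2-fold.

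Nox4 (chromosome 7, 87246096 to 87398710, + strand; positions here are from GENCODE M21 on GRCm38) encodes an oxidase that is active without a cytosolic activator and releases hydrogen peroxide. For SHF baseline, SHF AngII and CNC AngII, its level in smooth muscle cells was 220.3, 131 and 139 CPM. In fibroblasts it was 133, 92.6 and 102 CPM in the same order. SHF baseline was thus the highest library in each class, and smooth muscle cells stood above fibroblasts within each library. The log2 ratio of SHF AngII over SHF baseline was -0.74 in smooth muscle cells (interval -0.79 to -0.70) and -0.52 in fibroblasts (-0.58 to -0.46). The smooth muscle ratio was inside the range that held 90% of all tested genes, whose 5th percentile was -0.91. Over 13 other settings the smooth muscle ratio ranged from -1.21, past 2-fold, with the stricter cell filter that left 120 cells of SHF baseline, to -0.57 with TMM scaling. The fibroblast ratio ranged from -0.58 to -0.24, with the same 2 settings at its ends. CNC AngII exceeded SHF AngII by 0.09 in smooth muscle cells and 0.14 in fibroblasts. Cells with a Nox4 UMI made up 83.8% of SHF baseline smooth muscle cells and 74.1% of those of SHF AngII, or 34.4% and 23.9% after each cell was thinned to 2000 UMIs.

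Macrophages of CNC AngII held 43 Nox4 UMIs in 1764 cells, a level of 2.07 CPM, against 13377 UMIs in the smooth muscle cells of that library. A Nox4 UMI was seen in 2.38% of these macrophages, at a median depth of 11108 UMIs, and in 77.7% of the smooth muscle cells, at 13450. In the ranking of the 7 groups by Nox4, SHF baseline smooth muscle came highest and macrophages lowest; CNC AngII smooth muscle, SHF baseline fibroblasts and SHF AngII smooth muscle overlapped in turn. The 3 genes of 2709 whose log2 levels followed Nox4 most closely over the 7 groups were Aebp1, Arhgef25 and Tm4sf1, with Pearson r of 0.998, 0.997 and 0.996. Aebp1, the closest, was at 10.1 CPM in macrophages and at least 509 CPM in each other group, and the groups share libraries.

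Cyba (chromosome 8, 122424776 to 122432930, - strand), the subunit shared by both oxidases, was present in every class. Its level was 184, 199.6 and 210.4 CPM in smooth muscle cells of the 3 libraries, in the order above, and in fibroblasts 319.7, 345 and 318 CPM. These values barely differed between libraries: SHF AngII over SHF baseline gave 0.11 in both classes. Fibroblasts exceeded smooth muscle cells in all 3 libraries, by 0.79, 0.79 and 0.59 on the log2 scale. Macrophages of CNC AngII reached 1823 CPM, and 85.3% of them had at least 10 Cyba UMIs, against 2.76% of smooth muscle cells there.

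Cybb (chromosome X, 9435252 to 9487771, - strand) encodes the catalytic subunit of the phagocyte oxidase. It stood at 198 CPM in CNC AngII macrophages (interval 192 to 204), with a UMI in 78.9% of the cells, or 32.6% after thinning. The 8 and 13 macrophages of the SHF libraries held 530.0 CPM (387 to 709) and 263 CPM (187 to 359). The smooth muscle levels of the 3 libraries were 0.237, 0 and 2.30 CPM. In SHF AngII there were 0 of 4649 smooth muscle cells with a Cybb UMI, which allows, at 3 counts of the total, a share of up to 0.0645% of cells with a UMI. Fibroblasts held 0.211, 0.334 and 1.31 CPM. Both wall classes were therefore under 10 CPM in all 3 libraries, and highest in the library with many macrophages.

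Macrophage markers moved with that small Cybb level. Their 9 genes summed to 3.35, 2.49 and 349 CPM in smooth muscle cells of the 3 libraries and to 14.3, 24.9 and 251 CPM in fibroblasts. The CNC AngII smooth muscle sum was 1.09% of the 31898 CPM in macrophages. At that share of macrophage RNA, 2.16 CPM of Cybb would be carried along, where the observed difference between CNC AngII and SHF AngII was 2.30 CPM. In fibroblasts the same calculation gave 1.56 CPM, where 0.976 was observed. No cell can meet both the smooth muscle and the macrophage gate, because the macrophage gate limits Myh11. The smooth muscle gate sets no limit on macrophage markers, so a cell with both kinds of RNA can count as smooth muscle. In CNC AngII, 8 cells met both the fibroblast and the macrophage gate.

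Other partners of the phagocyte oxidase were also higher in macrophages. In CNC AngII macrophages and smooth muscle cells, respectively, the organiser subunit Ncf1 was at 204 and 2.51 CPM, the subunit Ncf4 at 122 and 1.64, and the GTPase Rac2 at 263 and 3.39. Rac1, the widely expressed GTPase, was at 355 CPM in macrophages and 190.1 CPM in smooth muscle cells. Of the 13 partner genes listed, 10 were in all files. Only Rac1 and Poldip2 reached 10 CPM in the 2 wall classes, so the oxidase partner list gave 2 tested genes there, neither past 2-fold.

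Across all 10 genes, 7 of 9 tested were past 2-fold between macrophages and smooth muscle cells of CNC AngII, against 41.9% of 7572 genes. Higher in macrophages were Cybb at 5.91, Hmox1 at 5.54, Gpx3 at 3.44, Cyba at 3.11 and Txnip at 1.71 on the log2 scale. Lower were Nox4 at -5.52 and Sod3 at -5.28. Between fibroblasts and smooth muscle cells of SHF baseline, 2 of 8 were past 2-fold, against 21.5% of 7732 genes. These were Gpx3, at 6.15, and Hmox1, at 1.25, both higher in fibroblasts. All cells of these class comparisons shared a library, and the groups were cut by marker UMIs, so genes that travel with the markers had to differ.

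The 3 superoxide dismutases behaved differently from one another. Sod1 (chromosome 16, 90220754 to 90226329, + strand), the cytosolic copper and zinc enzyme, was the most even of the 10. Its levels in smooth muscle cells were 72.3, 58.6 and 68.9 CPM in SHF baseline, SHF AngII and CNC AngII. Fibroblasts gave 76.5, 58.6 and 59.5 CPM and macrophages 57.3 CPM. The highest of these 7 levels was 1.34 times the lowest, and 5 of 6 neighbours in the order had overlapping intervals. SHF AngII over SHF baseline was -0.30 in smooth muscle cells and -0.38 in fibroblasts.

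Sod2 (chromosome 17, 13006846 to 13040063, + strand), the mitochondrial manganese enzyme, was higher in both AngII libraries than in SHF baseline. Its levels were 113, 163 and 154 CPM in smooth muscle cells and 89.9, 139 and 119 CPM in fibroblasts, in the order of libraries above. Its log2 ratio of SHF AngII over SHF baseline was 0.53 in smooth muscle cells (0.47 to 0.59) and 0.62 in fibroblasts (0.57 to 0.69), below 2-fold. Macrophages held 155 CPM, which overlapped both AngII smooth muscle values. Fibroblasts over smooth muscle cells gave -0.32, -0.23 and -0.37 in the 3 libraries, so smooth muscle cells were the higher class in each.

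Sod3 (chromosome 5, 52363791 to 52371418, + strand) encodes the secreted enzyme that protects the extracellular space of the vessel wall. Levels were 470.1, 504 and 453 CPM in smooth muscle cells and 389, 588 and 676 CPM in fibroblasts. SHF baseline fibroblasts were therefore below the smooth muscle cells of their library and the fibroblasts of both AngII libraries above theirs. SHF AngII over SHF baseline was 0.59 in fibroblasts (0.57 to 0.62) and 0.10 in smooth muscle cells (0.07 to 0.13). No 2 neighbours of the 7 groups had overlapping intervals, although the smooth muscle values lay within 1.11-fold of each other for the 2 AngII libraries. Fibroblasts with at least 10 Sod3 UMIs made up 7.84%, 42.8% and 40.3% of the class; depth differed too, with medians of 9534, 15486 and 12379.5 UMIs.

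In CNC AngII macrophages, Sod3 was at 10.6 CPM, with a UMI in 8.56% of cells against 97.4% of smooth muscle cells. The genes closest to Sod3 over the 7 groups were Fat1, Bgn and Ift20, with r of 0.999, 0.997 and 0.996. Each was, like Sod3, lowest in macrophages, at 3.32, 63.8 and 77.8 CPM. These r values therefore do not show that the genes vary together among the wall cell groups. Bgn, a small matrix proteoglycan, went from 3316 to 4100.0 CPM between SHF baseline and SHF AngII fibroblasts.

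Hmox1 (chromosome 8, 75093621 to 75100589, + strand), the inducible enzyme that breaks down heme, spanned 123-fold from the lowest to the highest of the 7 groups. Its levels in the 3 libraries were 14.5, 20.6 and 37.4 CPM in smooth muscle cells and 35.8, 106 and 126 CPM in fibroblasts. CNC AngII macrophages held 1786 CPM (1768 to 1805). Fibroblasts were above smooth muscle cells in each library, and both AngII libraries above SHF baseline in each class. The smooth muscle ratio of SHF AngII over SHF baseline was 0.49 (0.36 to 0.67) and ranged from 0.29 to 1.70 over 13 other settings. It was past 2-fold in 2 of them, at 1.70 with the stricter cell filter and 1.44 with the matched dissociation stress share described next.

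In fibroblasts, Hmox1 was 2.89-fold higher with AngII in the SHF lineage, a log2 ratio of 1.53 (1.47 to 1.65). The share of fibroblasts with a Hmox1 UMI was 20.5% in SHF baseline and 50.8% in SHF AngII, or 6.53% and 15.2% after thinning to 2000 UMIs. A minority of cells held much of the sum: 104 SHF AngII fibroblasts with at least 10 UMIs carried 38.7% of it. The remaining cells were at 67.7 CPM, against 32.7 CPM for the corresponding cells of SHF baseline. The 8 genes of a dissociation stress list, such as Fos and Hspa1a, were lower in SHF AngII, at 6382 CPM against 13604 in SHF baseline. Cells between the 25th and 75th percentile of the stress share were then compared, 1560 of SHF AngII and 1729 of SHF baseline, with stress sums of 8118 and 9304 CPM. Hmox1 was at 121 and 31.8 CPM in them, a log2 ratio of 1.90, against 1.53 in all fibroblasts. The part of dissociation stress in the Hmox1 difference was not tested.

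Between CNC AngII and SHF AngII smooth muscle cells, the Hmox1 difference was 0.83 (0.77 to 0.95), or 1.78-fold. Macrophage RNA moved with it. At the 1.09% of macrophage RNA given above, 19.5 CPM of Hmox1 would be carried into CNC AngII smooth muscle cells, where 16.8 CPM separated the libraries. With that share taken off, CNC AngII stood at 18.1 CPM and the log2 ratio at -0.18, so the direction turned. With marked doublets kept, the ratio was 1.41. The 43 CNC AngII smooth muscle cells with at least 10 UMIs held 42.1% of its Hmox1 UMIs, and the other cells were at 21.9 CPM against 16.3 in SHF AngII. In fibroblasts, where CNC AngII exceeded SHF AngII by 20.2 CPM, the same subtraction took off 14.1 CPM.

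Hmox1 at the edge of the smooth muscle gate was above the level of the whole class. The 118 SHF AngII cells with 5 or 6 Myh11 UMIs held 147 CPM, and the 77 cells just outside, with 3 or 4, held 35.2 CPM. In CNC AngII these values were 102 CPM in 136 cells inside and 72.2 CPM in 91 cells outside. The largest count in a single smooth muscle cell was 136 Hmox1 UMIs in SHF AngII and 138 in CNC AngII. Whether such a cell sets an edge value was not tested. Among fibroblasts of SHF AngII, those with 1 Pdgfra UMI held 119.9 CPM and the cells left out for having none 108 CPM.

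Nqo1 (chromosome 8, 107388225 to 107403206, - strand) encodes a quinone reductase and is, like Hmox1, a textbook target of the stress regulator Nrf2. It was a low gene in these cells, at 13.7, 11.3 and 10.8 CPM in smooth muscle cells and 2.98, 3.79 and 2.18 CPM in fibroblasts. Macrophages held 1.35 CPM. Smooth muscle cells were thus the highest class in each library, the opposite of Hmox1. The log2 ratio in smooth muscle cells was -0.25 for SHF AngII over SHF baseline (-0.45 to -0.10) and reached 0.04 after thinning.

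Other genes of the Nrf2 pathway and of glutathione synthesis showed no shared direction between SHF AngII and SHF baseline. In smooth muscle cells, 7 of 15 tested had a ratio above 0 and none was past 2-fold, against 6.39% of all genes, with a median of -0.08. In fibroblasts, 7 of 16 were above 0 and 1 was past 2-fold, against 15.3%, with a median of -0.04. That gene was Mafk, a small partner of Nrf2, at 60.3 CPM in SHF baseline and 20.4 in SHF AngII. Nfe2l2, which encodes Nrf2, was at 66.0 and 53.3 CPM in smooth muscle cells and 120.2 and 98.1 CPM in fibroblasts. Keap1, its inhibitor, was at 36.0 and 40.0 CPM and at 43.3 and 41.9 CPM. In macrophages against smooth muscle cells of CNC AngII, 8 of 16 were past 2-fold higher and 2 lower, where 41.9% of all genes were past it in either direction. The higher ones included Blvrb, a biliverdin reductase, at 739 against 79.7 CPM, and the ferritin light chain Ftl1, at 16578 against 1277 CPM, whose near-identical copies make its counting uncertain. Heme breakdown by Hmox1 yields biliverdin and iron, but a link of these genes to Hmox1 was not tested.

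Gpx3 (chromosome 11, 54902453 to 54910377, + strand), the secreted glutathione peroxidase of plasma, was a fibroblast gene in this aorta. Fibroblasts held 325, 493 and 390.3 CPM in SHF baseline, SHF AngII and CNC AngII. Smooth muscle cells held 3.59, 8.18 and 2.24 CPM, and macrophages of CNC AngII 34.3 CPM. A Gpx3 UMI was found in 56.9% of SHF baseline fibroblasts and 2.52% of the smooth muscle cells. The order of all 7 groups held beyond counting error. SHF AngII over SHF baseline was 0.60 in fibroblasts (0.57 to 0.64), and CNC AngII over SHF AngII -0.34 (-0.38 to -0.29).

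Fibroblast markers were seen beside the smooth muscle traces of Gpx3: the 6 summed to 1138, 1376 and 1175 CPM in smooth muscle cells of the 3 libraries. Most of this sum was Col1a1, at 709, 1105 and 1138 CPM. Dcn, at 311, 174 and 20.3 CPM, and Lum, Dpt and Pi16 were each highest in SHF baseline, and Gpx3 was highest in SHF AngII. Those markers were also highest in SHF baseline within fibroblasts, where Dcn was at 15528, 5757 and 4662 CPM. Their smooth muscle levels are therefore not a measure of the share of fibroblast RNA. The part of fibroblast RNA in the Gpx3 traces was not tested. Smooth muscle markers in fibroblasts, in turn, summed to 1247, 4019 and 3912 CPM, and their part in the fibroblast ratios was not tested beyond the subtraction of free RNA, which left Hmox1 and Txnip past 2-fold. Over the 7 groups, the genes closest to Gpx3 were Olfml3, Lbp and Ly6a, each with r of at least 0.995. Olfml3 was at 235 and 400.0 CPM in SHF baseline and SHF AngII fibroblasts and at 3.22 and 6.89 CPM in smooth muscle cells.

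Txnip (chromosome 3, 96557957 to 96561883, + strand) had the largest ratio between libraries. Fibroblasts held 237, 43.2 and 57.6 CPM in SHF baseline, SHF AngII and CNC AngII, and smooth muscle cells 124, 58.9 and 48.6 CPM. Both AngII libraries were below SHF baseline in each class. Fibroblasts were above smooth muscle cells in SHF baseline and below them in SHF AngII. In fibroblasts SHF AngII was 5.40-fold lower than SHF baseline, a log2 ratio of -2.43 (-2.53 to -2.39). The smooth muscle level was 2.09-fold lower, at -1.06 (-1.14 to -1.01). The counting intervals of these 2 ratios do not overlap; whether the classes differ could not be tested with 1 library per group.

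The share of fibroblasts with a Txnip UMI was 64.3% in SHF baseline and 38.3% in SHF AngII although the AngII cells were deeper, and 30.5% and 8.57% after thinning. The smooth muscle shares were 61.9% and 48.4%, or 21.0% and 12.6% after thinning. Within the same range of stress share, set for each class, Txnip was at 223 and 35.5 CPM in fibroblasts of SHF baseline and SHF AngII, and at 134 and 51.2 CPM in smooth muscle cells. The smooth muscle ratio lies close to the 2-fold line: it was past it under 9 of 13 other settings, over a range of -1.89 to -0.83. The lowest value came from the stricter cell filter, which left 120 smooth muscle cells of SHF baseline. The fibroblast ratio stayed past 2-fold under all 13, from -2.62 to -2.16.

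CNC AngII over SHF AngII was -0.27 for Txnip in smooth muscle cells and 0.41 in fibroblasts, both under 2-fold. Macrophages of CNC AngII held 162 CPM, above both wall classes of their library. An exon of Gm15441 overlaps Txnip on the other strand; Gm15441 was between 0.530 and 0.713 CPM in the 7 groups, and whether the authors counted by strand is not given in the sources used here. The genes closest to Txnip over the 7 groups were Akap13, Stx4a and BC005624, with r of 0.974, 0.973 and 0.963, the loosest fit of the 5 genes examined in this way.

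Transcription of Txnip and of its paralog Arrdc4 is known to follow glucose metabolites through the factors ChREBP and MondoA, which bind a carbohydrate response element with their partner Mlx. The 250 bases upstream of the start are shown for both genes, from RefSeq on GRCm38.p6, because Txnip carried the largest library difference and Arrdc4 is its textbook companion. Capitals mark matches to the element, searched as CACGNG and CNCGNG with 5 bases between, or to the E-box CACGTG, which can be part of it, on both strands. Windows on the - strand are written 5′ to 3′ along the gene.
Txnip, chr3:96557707-96557956, + strand: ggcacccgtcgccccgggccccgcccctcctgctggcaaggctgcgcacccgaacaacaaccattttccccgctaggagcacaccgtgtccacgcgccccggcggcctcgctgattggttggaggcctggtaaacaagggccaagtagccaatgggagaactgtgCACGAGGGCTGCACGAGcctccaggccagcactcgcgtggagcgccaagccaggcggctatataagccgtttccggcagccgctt
Arrdc4, chr7:68749239-68749488, - strand: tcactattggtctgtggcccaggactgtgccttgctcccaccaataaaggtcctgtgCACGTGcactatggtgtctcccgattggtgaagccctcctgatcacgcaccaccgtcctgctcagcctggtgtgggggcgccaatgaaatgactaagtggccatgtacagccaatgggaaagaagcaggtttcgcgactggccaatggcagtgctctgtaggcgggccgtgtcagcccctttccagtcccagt
The Txnip match begins 85 bases upstream of the start, and 0.280% of all 32851 promoter windows of this length held the full element. Arrdc4 held the E-box alone, 193 bases upstream, as did 6.02% of windows. A match describes the letters and is not a bound site.

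Arrdc4 was low, at 7.48 CPM in SHF baseline and 7.79 in SHF AngII smooth muscle cells and at 9.31 and 6.70 CPM in fibroblasts, and was not tested. Another paralog, Arrdc3, was lower in SHF AngII in both classes, at 46.2 and 15.0 CPM in smooth muscle cells, a log2 ratio of -1.56, and at 53.4 and 11.2 CPM in fibroblasts, -2.15. It was the single gene past 2-fold of the 3 tested on the list of Txnip regulators and paralogs, in each class. Of all genes, 6.39% were past 2-fold in smooth muscle cells and 15.3% in fibroblasts. The list medians were -0.12 and -0.33, where those of all genes were -0.10 and -0.21. Hmox1 and Sod3 had no promoter window in the RefSeq table and were not searched, nor were bases beyond 250 upstream of any gene. The other 8 of the 10 genes had a window. The Nrf2 core sequence TGACNNNGC, searched on both strands, was found in 1 of these 8, Sod1, as TGACCACGC on the other strand with its far end 56 bases upstream; 10.2% of windows held it.

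Peroxide and thiol enzymes accompanied the 10 genes as background of the pathway. In smooth muscle cells, 15 of 20 tested had a ratio above 0 for SHF AngII over SHF baseline, and 1 was past 2-fold, near the 6.39% of all genes. The median was 0.17, where that of all genes was -0.10. The gene past 2-fold was Gpx8, a peroxidase of the endoplasmic reticulum, at 119 CPM in SHF baseline and 248 in SHF AngII. In fibroblasts 15 of 19 were above 0, with a median of 0.31 against -0.21 for all genes. There Prdx5, a peroxiredoxin, was at 232 and 594 CPM, Gpx7, another peroxidase of the endoplasmic reticulum, at 123 and 299.6 CPM, and catalase, Cat, at 62.5 and 26.0 CPM. These were the 3 of 19 past 2-fold, near the 15.3% of all genes, with Cat on the lower side.

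Gpx1, the abundant cytosolic peroxidase, was at 740.3 and 890.1 CPM in smooth muscle cells of SHF baseline and SHF AngII and at 341 and 509 CPM in fibroblasts. Prdx1, a peroxiredoxin, was at 602 and 550.1 CPM in smooth muscle cells and at 856 and 1087 CPM in fibroblasts. Among glutathione transferases, which join glutathione to electrophiles, Gstm1 was lower in SHF AngII in both classes, at 509.7 and 203 CPM in smooth muscle cells and 466 and 126 CPM in fibroblasts. Its close relative Gstm2 was at 153 and 314 CPM in fibroblasts, on the higher side; reads of such near-identical copies may be split by the counting. Gsto1 was at 11.3 and 27.3 CPM in the same fibroblasts. Of 8 glutathione transferases tested in each class, 1 was past 2-fold in smooth muscle cells, on the lower side, against 6.39% of all genes. In fibroblasts 2 were past it on the higher side and 1 on the lower, against 15.3%. The list medians were 0.02 and -0.17, where those of all genes were -0.10 and -0.21. Between CNC AngII and SHF AngII, 1 gene of the 5 lists was past 2-fold in smooth muscle cells, the microsomal transferase Mgst1, at 17.9 and 40.2 CPM, and none in fibroblasts, where 0.798% and 0.610% of all genes were past it.

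**Figure D3:**
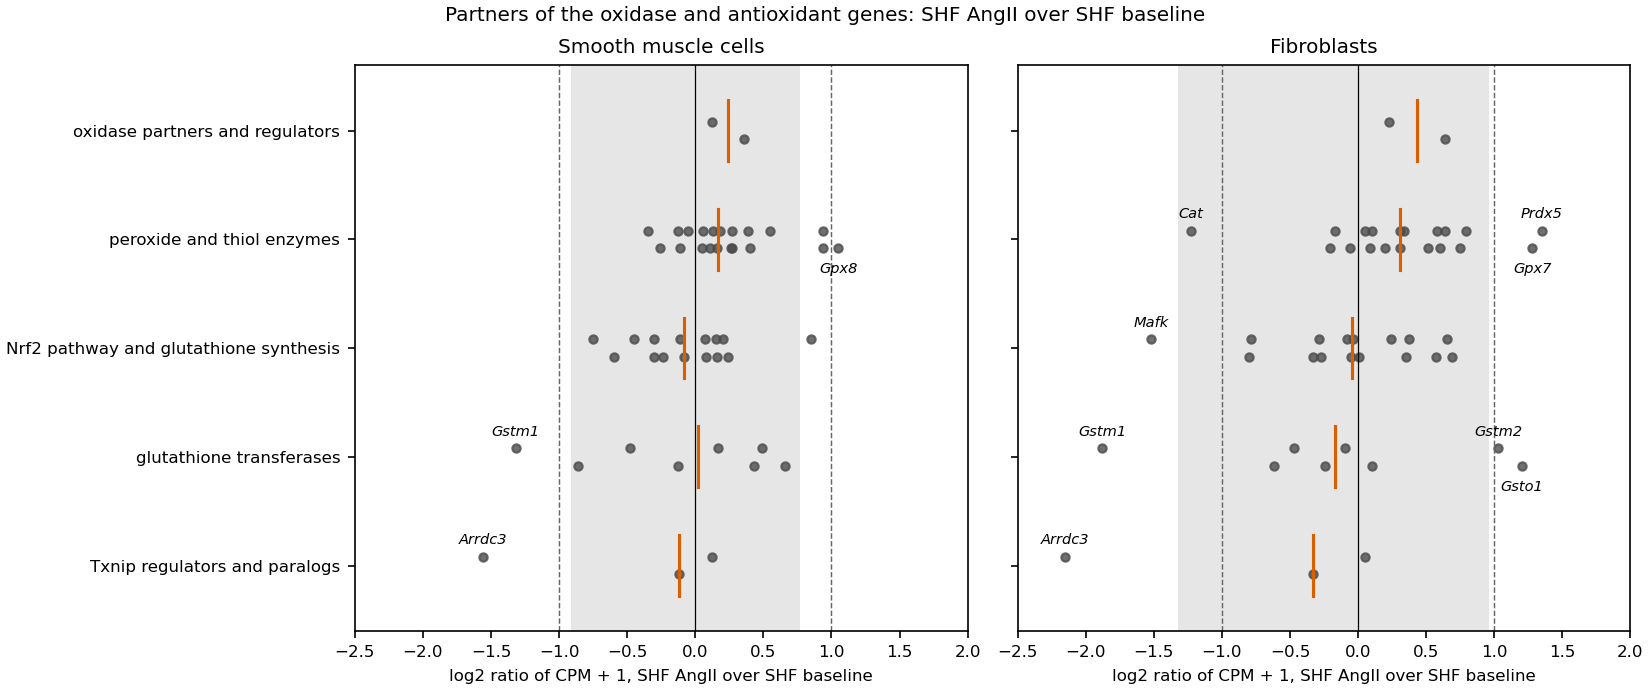
log2 ratios of CPM + 1, SHF AngII over SHF baseline, for the tested genes of the 5 pathway lists in smooth muscle cells and fibroblasts; each point is a gene, orange bars are list medians, grey bands the 5th to 95th percentile of all tested genes and dashed lines 2-fold. Gstm1 and Arrdc3 lie past 2-fold on the lower side in both classes, while Prdx5 and Gpx7 are past it on the higher side in fibroblasts.

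Macrophages of CNC AngII were split by Lyve1, a marker of resident vessel-wall macrophages, and Ccr2, a chemokine receptor of monocyte-derived cells. There were 1349 cells with a Lyve1 UMI, 286 with Ccr2 but no Lyve1, and 129 with neither, at median depths of 11730, 9874 and 8134 UMIs. Hmox1 was at 2087 CPM in Lyve1 cells (2065 to 2109), 314 in Ccr2 cells (294 to 335) and 1013 in the rest (955 to 1074). Cybb ran the other way, at 175 CPM (169 to 181), 298 (278 to 319) and 284 (254 to 317). Txnip was at 179, 86.2 and 100.1 CPM, and Gpx3 at 38.7, 10.2 and 28.6 CPM. Lyve1 cells were thus the highest set for Hmox1 and Txnip and the lowest for Cybb. Cyba, at 1869.6, 1589 and 1724 CPM, and Sod2, at 157, 147 and 149 CPM, were close to even. All 3 sets came from 1 library, and deeper cells pass a detection rule more easily.

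**Figure D4:**
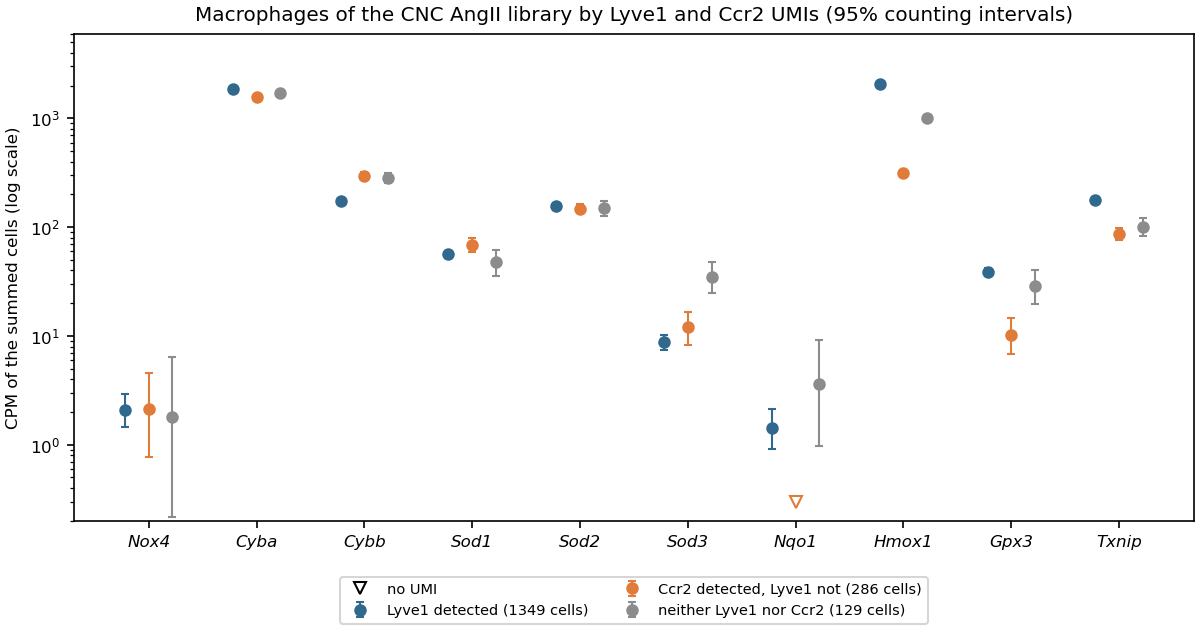
Levels of the 10 genes in CPM (log axis) in CNC AngII macrophages with a Lyve1 UMI, with a Ccr2 but no Lyve1 UMI, or with neither, with 95% counting intervals; the open triangle marks a set without a UMI. Hmox1 is at 2087, 314 and 1013 CPM in the 3 sets and Cybb at 175, 298 and 284 CPM.

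Smooth muscle cells were also split by detection of Tnnt2 and of Igfbp2. In SHF AngII, Txnip was at 68.4 CPM in cells with a Tnnt2 UMI and 46.7 in the others, and Nox4 at 147 and 111 CPM. In CNC AngII the same contrast gave 55.3 and 46.6 CPM for Txnip and 150.2 and 136 CPM for Nox4. In SHF baseline it gave 134 and 99.4 CPM for Txnip but 219.9 and 221 CPM for Nox4. Txnip was therefore higher in Tnnt2 cells in each of the 3 libraries, and Nox4 in the AngII libraries alone.

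By Igfbp2, Txnip in SHF AngII was at 51.1 CPM in cells with a UMI and 80.9 in those without, at median depths of 14708 and 10419 UMIs. In SHF baseline the values were 122 and 125 CPM, with overlapping intervals. Nox4 by Igfbp2 was at 198 and 229 CPM in SHF baseline, 125 and 149 in SHF AngII, and 139.7 and 138 in CNC AngII, where the intervals overlapped. Hmox1 in CNC AngII was at 33.0 and 61.7 CPM by Igfbp2, and Cybb, a gene of the macrophages, at 1.91 and 4.45 CPM in the same cells. The part of macrophage RNA in this Hmox1 contrast was not tested.

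Fibroblasts were split by Cthrc1, a gene of matrix-producing fibroblasts. In SHF AngII, Txnip was at 36.3 CPM with a Cthrc1 UMI and 63.2 without, and Gpx3 at 475 and 547 CPM. In SHF baseline, Txnip was at 257 and 234 CPM, so the order of the sets was the reverse. Nox4 in SHF baseline was at 185 CPM in 476 cells with Cthrc1 and 123 in 3463 without, whereas in SHF AngII the values were 91.5 and 95.9 CPM. Cells with Cthrc1 were the deeper ones in each library, with medians of 12112 against 9162 UMIs in SHF baseline and 19231 against 10656 in SHF AngII.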

How the data were processed

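Single-cell RNA sequencing was analysed from 3 libraries of sorted aortic cells. The deposited files hold raw UMI counts per gene and barcode, per the file contents, which the authors did not normalise. The submitters' processing notes name fastp, STAR 2.5, HTSeq 0.6.1 and mm10, with no role or order given. Library totals were 92474476 (SHF baseline), 147854476 (SHF AngII) and 150954701 (CNC AngII) UMIs; the common genes held at least 99.6% of them, 514 matched by a RefSeq synonym, and 13 repeated names were left out. Barcodes under 500 genes or over 10% mitochondrial UMIs were dropped. Scrublet (scanpy 1.11.5, seed 0) marked 205, 191 and 277 of the rest as doublets, which were removed, leaving 8374, 9299 and 10194 cells. Of these, 25.9%, 21.5% and 11.9% met no class gate. UMIs were summed per class and library, and the ratio script was tested on simulated data. No model was fitted, since each group had 1 library; edgeR 4.0.16 gave TMM factors alone. Shares are of cells with a UMI. The 10 genes, the 5 pathway lists (68 genes, 65 in all files) and the marker lists were chosen with earlier results of these data known. All 10 genes are reported in each comparison; from the pathway lists the genes past 2-fold and 10 fixed genes are named, not all of them here. Alternatives changed totals, filters, gates, thinning, weighting, pseudocount (10 CPM) and minimum level; 2 were added after seeing the data (matched stress share and macrophage RNA subtraction).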

Additional observations from a re-analysis of the deposited data

Results flagged for a closer look

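Between CNC AngII and SHF AngII, 3 genes were flagged because smooth muscle cells and fibroblasts differed in opposite directions, each with a counting interval clear of 0. The share of all genes that meet this rule was not computed. The 5th to 95th percentile of all tested genes was -0.24 to 0.26 in smooth muscle cells and -0.28 to 0.29 in fibroblasts. Sod3 and Cyba lay inside both ranges and Txnip outside both. With 1 library per group, whether the classes differ could not be tested. Txnip had a log2 ratio of -0.27 in smooth muscle cells and 0.41 in fibroblasts, 0.68 apart. Sod3 had -0.15 and 0.20, 0.35 apart. Cyba had 0.08 and -0.12, -0.20 apart, and its smooth muscle ratio was -0.05 after the subtraction of macrophage RNA.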

How the results depend on the processing

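The counts of genes past 2-fold depended on the setting in 3 of 6 comparisons. In smooth muscle cells, SHF AngII over SHF baseline, the count of 1 was 0 with TMM scaling, thinning to 2000 UMIs, the mean of per-cell shares or a pseudocount of 10 CPM. It was 3 with the stricter cell filter, which left 120 cells of SHF baseline, and 2 with no minimum CPM or with the matched dissociation stress share. In smooth muscle cells, CNC AngII over SHF AngII, the count of 0 was 1 with doublets kept and 2 with no minimum CPM. For fibroblasts over smooth muscle cells in SHF baseline, the count of 2 was 1 with a pseudocount of 10 CPM or a minimum mean of 50 CPM. In the other 3 comparisons the count stayed within 1.5 times its value under every setting run. Of 619 ratios of single genes under the alternatives, 461 lay within the counting interval once it was shifted to the reported ratio, which carries the pseudocount, and 158 outside it, and none of the ratios past 2-fold changed sign. The cause of these movements was not tested. No paired analysis was possible because each group had 1 library. Cybb in both wall classes, Gpx3 in smooth muscle cells, and Nqo1 in fibroblasts and CNC AngII macrophages were under 10 CPM, the level set as the minimum mean. The spread between mice and between preparations is unknown for every value.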
